A study of Mus musculus with 6 samples.

Results

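Small nucleolar RNAs (snoRNAs) and small Cajal body RNAs (scaRNAs) were examined in RAW264.7 cells, an established mouse macrophage-like cell line, after transfection with a miR-342-3p mimic. The set comprised every gene with a symbol beginning Snora, Snord or Scarna followed by a digit and with a probe set of its own on a whole-transcript mouse gene array, which gave 54 of the 19938 genes measured. Of these, 20 were H/ACA snoRNAs (Snora), 31 were C/D snoRNAs (Snord) and 3 were scaRNAs. The RNA came from 3 samples of cells transfected with miR-342-3p mimics and 3 samples transfected with negative control mimics, and was isolated 18 h after transfection. All 6 samples were of the same cell line, received a mimic and were labelled from 150 ng of total RNA, so no untransfected cells enter the comparison. Values are log2 intensities of 1 array per sample, and a change is the mean of the miR-342-3p arrays minus the mean of the control arrays. The number of arrays limits the precision.

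SnoRNAs are short nuclear RNAs that pair with other RNAs and bring an enzyme to a chosen base. The H/ACA class works with dyskerin (Dkc1) and turns uridine into pseudouridine, whereas the C/D class works with fibrillarin (Fbl) and methylates the ribose. Most guide changes in ribosomal RNA, a few are needed to cut the rRNA precursor, and scaRNAs guide the same changes in the small nuclear RNAs of the spliceosome. In mammals nearly all are released from the introns of host genes, many of which encode ribosomal proteins or are spliced noncoding RNAs known as small nucleolar RNA host genes (Snhg). An intronic snoRNA is trimmed from the excised intron and held by its proteins, so its level can differ from that of the spliced host RNA. miR-342-3p is a microRNA that is itself processed from an intron.

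The mature microRNA that the mimic stands for is shown because it is the agent set against the control mimic. Its capitals mark the seed, bases 2 to 8 from the 5′ end, and its RefSeq position is chr12:108658680-108658702 of GRCm38.p6, plus strand.
mmu-miR-342-3p: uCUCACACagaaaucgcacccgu

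Markers of macrophages and of other cell types were examined as a check of the label. The 10 macrophage markers, among them Csf1r and Adgre1, lay between 7.32 and 12.58 in miR-342-3p-transfected cells and between 7.49 and 12.68 in control cells, whereas the 5 markers of other cell types lay between 5.40 and 8.12 and between 5.37 and 7.93. The 2 ranges overlap, and levels of different probe sets are only roughly comparable. Of the macrophage markers Mertk and Tyrobp were called higher and Itgam and Fcgr1 lower, and of the other markers 0 were called at an FDR under 0.1 or had an unadjusted p under 0.05. Their part in the results below was not tested. Correlations between arrays over all genes were 0.9909 to 0.9926 within the miR-342-3p group and 0.9982 to 0.9986 within the control group, so the miR-342-3p arrays were the more spread. In RNA from whole cultures, fewer cells of a kind and less RNA per cell cannot be told apart.

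First, it was asked how many of the small RNAs changed and in which direction. At an FDR under 0.1 in a limma fit over all genes, 15 of the 54 were higher in miR-342-3p-transfected cells (27.8%) and 4 were lower (7.41%), and 35 were not called. Among all genes, 4.14% were called higher and 7.42% lower. The share of higher calls was thus well above that of all genes, and the share of lower calls was close to it. The median change was 0.235 on the log2 scale, against 0.069 for all genes, with 38 of the small RNAs above 0 and 16 below. The groups did not overlap for 20 small RNAs that were higher and for 6 that were lower, where 21.4% of all genes were higher without overlap and 15.5% were lower without overlap. The 15 and 4 calls rest on having all 3 control arrays. Without control replicate 1, 2 or 3, there were 9, 6 and 6 higher and 0, 1 and 1 lower calls. The share of all genes called higher was then 0.502%, 0.441% and 0.471%, and the share called lower 0.512%, 0.577% and 0.702%. Without miR-342-3p replicate 1, 11 were higher and 2 lower, where 3.39% and 4.95% of all genes were. Snora31, Snora44, Snora73a, Snora73b, Snord104 and Scarna17 were called whichever array was left out.

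**Figure D1:**
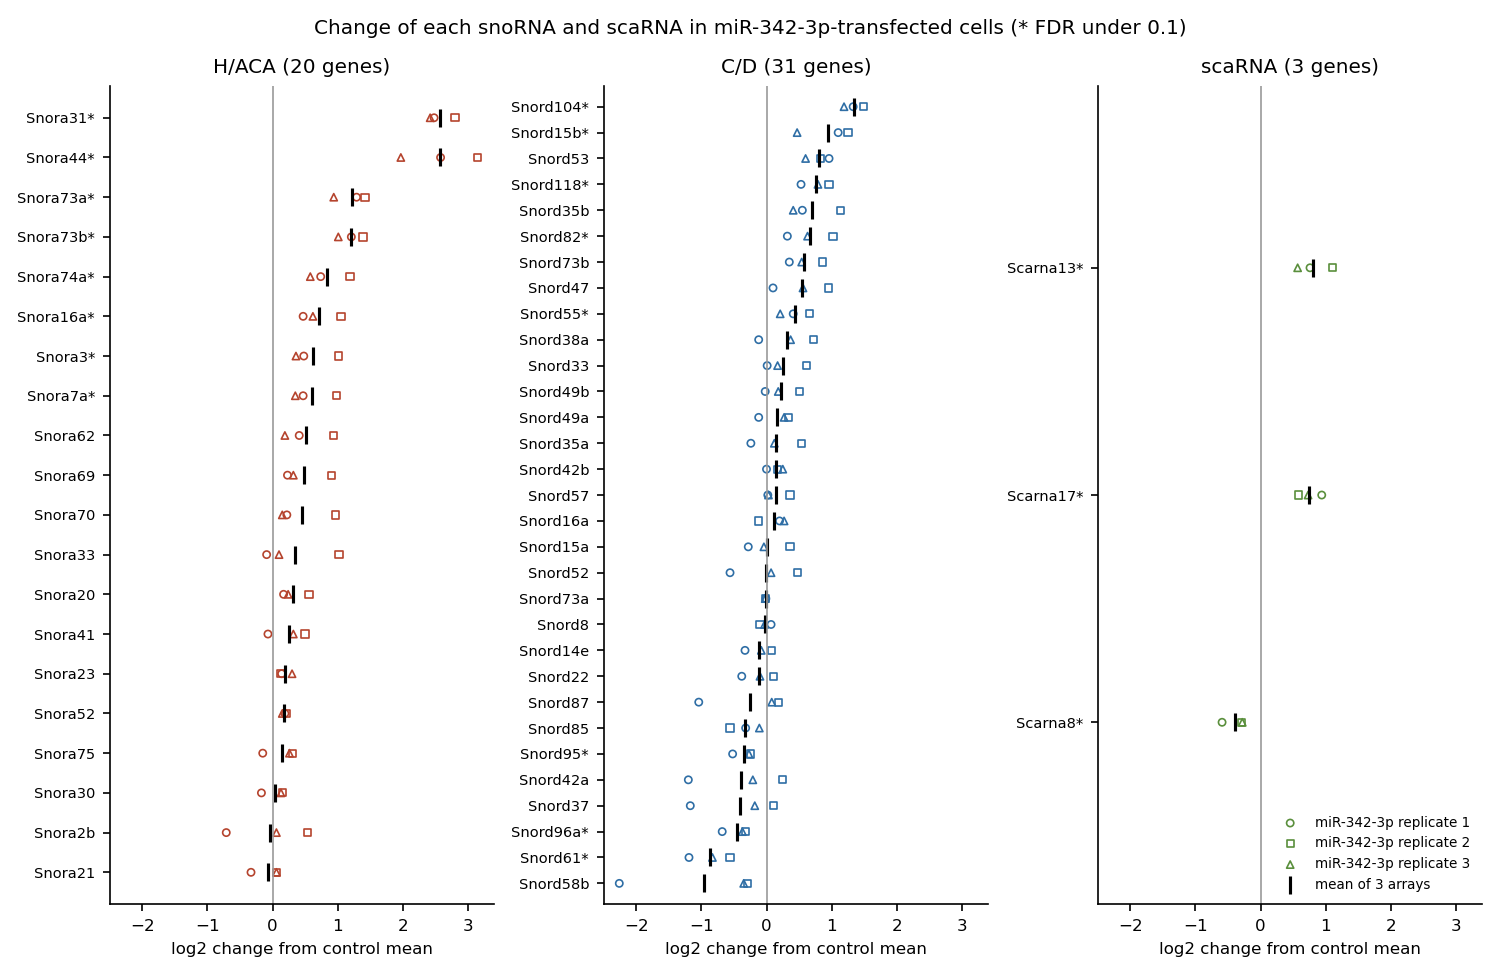
Log2 change of each of the 54 small RNAs in the 3 miR-342-3p arrays, as the difference from the mean of the control arrays (x axis), by class and ordered by the mean change, which a black bar marks. Snora31 and Snora44 lie apart at 2.57, 18 of 20 H/ACA means lie above 0, and the squares of miR-342-3p replicate 2 lie furthest to the right for most genes.

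Of the 20 H/ACA members 8 were higher (40.0%), 0 were lower and 12 were not called. Their median change was 0.467, and 18 of the 20 means lay above 0, as did 64.5% of all genes. The unadjusted limma p was under 0.05 for 14 of the 20 and for 25.5% of all genes. Without miR-342-3p replicate 2 the H/ACA median was 0.248. Of the 31 C/D members 5 were higher (16.1%) and 3 lower (9.68%), with a median of 0.136, 18 means above 0 and 13 below. Of the 3 scaRNAs 2 were higher and 1 was lower. The groups did not overlap for 13 H/ACA members that were higher and 0 that were lower, and for 5 C/D members in each direction. Without control replicate 1, 2 or 3, the higher calls were 6, 4 and 4 in the H/ACA class and 2, 1 and 1 in the C/D class, and the lower calls were 0 throughout in the H/ACA class and 0, 1 and 1 in the C/D class. The difference between the classes itself was not tested.

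Snora31, whose human counterpart guides pseudouridine formation in rRNA, was at 10.43, 10.76 and 10.37 in the miR-342-3p arrays and at 8.19, 7.88 and 7.79 in the control arrays. The lowest miR-342-3p array was far above the highest control array, and the change of 2.57 ± 0.134 (SE, n = 3 each, FDR 0.000358) corresponds to 5.93-fold. Snora44, another H/ACA guide for rRNA in human cells, was at 11.0, 11.57 and 10.39 in the miR-342-3p arrays and at 8.50, 8.13 and 8.61 in the control arrays. Its change of 2.57 ± 0.258 (FDR 0.00591) was as large, but its miR-342-3p arrays were spread over more than 1 log2 unit, with an SD of 0.589 against 0.249 in the controls. Snora16a, which lies in the same host gene as Snora44, was at 10.36, 10.95 and 10.52 in miR-342-3p-transfected cells and at 10.19, 9.67 and 9.83 in control cells. It rose by 0.71 (SE 0.171, FDR 0.0504), and its lowest miR-342-3p array stood only a little above its highest control array.

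Snora73a and Snora73b, the copies of the U17 snoRNA, do not serve as ordinary modification guides. U17 is needed for the early cuts of the rRNA precursor that lead to 18S rRNA. Snora73a was at 11.74, 11.86 and 11.38 in the miR-342-3p arrays and at 10.55, 10.34 and 10.44 in the control arrays, a change of 1.22 ± 0.125 (SE, FDR 0.00624). Snora73b was at 11.50, 11.68 and 11.29 in the miR-342-3p arrays and at 10.44, 10.15 and 10.28 in the control arrays, a change of 1.20 ± 0.116 (SE, FDR 0.00438). Both were more than 2-fold higher, by 2.32-fold and 2.30-fold. The 2 copies are similar in sequence and lie in one host gene, so they are not independent of each other, and the array could assign signal of one to the other.

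The other 3 H/ACA members called higher had smaller changes. Snora74a, also known as U19, was at 9.99, 10.44 and 9.83 in miR-342-3p-transfected cells and at 9.37, 9.24 and 9.13 in control cells (0.84 ± 0.148, FDR 0.0222). Snora3 was at 10.82, 11.34 and 10.69 in miR-342-3p-transfected cells and at 10.53, 10.04 and 10.42 in control cells (0.62 ± 0.180, FDR 0.0821). Snora7a was at 10.95, 11.45 and 10.83 in miR-342-3p-transfected cells and at 10.63, 10.33 and 10.47 in control cells (0.60 ± 0.158, FDR 0.0638). In all 3 the groups did not overlap, and in all 3 miR-342-3p replicate 2 was the highest array. The calls of Snora3 and Snora7a were lost when the arrays were centred on their medians, with FDRs of 0.126 and 0.103.

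Of the 3 H/ACA snoRNAs of highest level in control cells, Snora52 and Snora23 were not called, whereas Snora7a was. Snora52, the brightest of all 54 in control cells, was at 12.70, 12.72 and 12.66 in miR-342-3p-transfected cells and at 12.60, 12.47 and 12.48 in control cells, a difference of 0.18 (SE 0.0756, FDR 0.179). Snora23 was at 10.63, 10.61 and 10.78 in miR-342-3p-transfected cells and at 10.53, 10.50 and 10.43 in control cells, a difference of 0.19 (SE 0.0799, FDR 0.183). In neither did the groups overlap, and neither passed the test. The remaining 10 H/ACA members that were not called had differences of -0.0722 (Snora21) to 0.51 (Snora62).

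**Figure D2:**
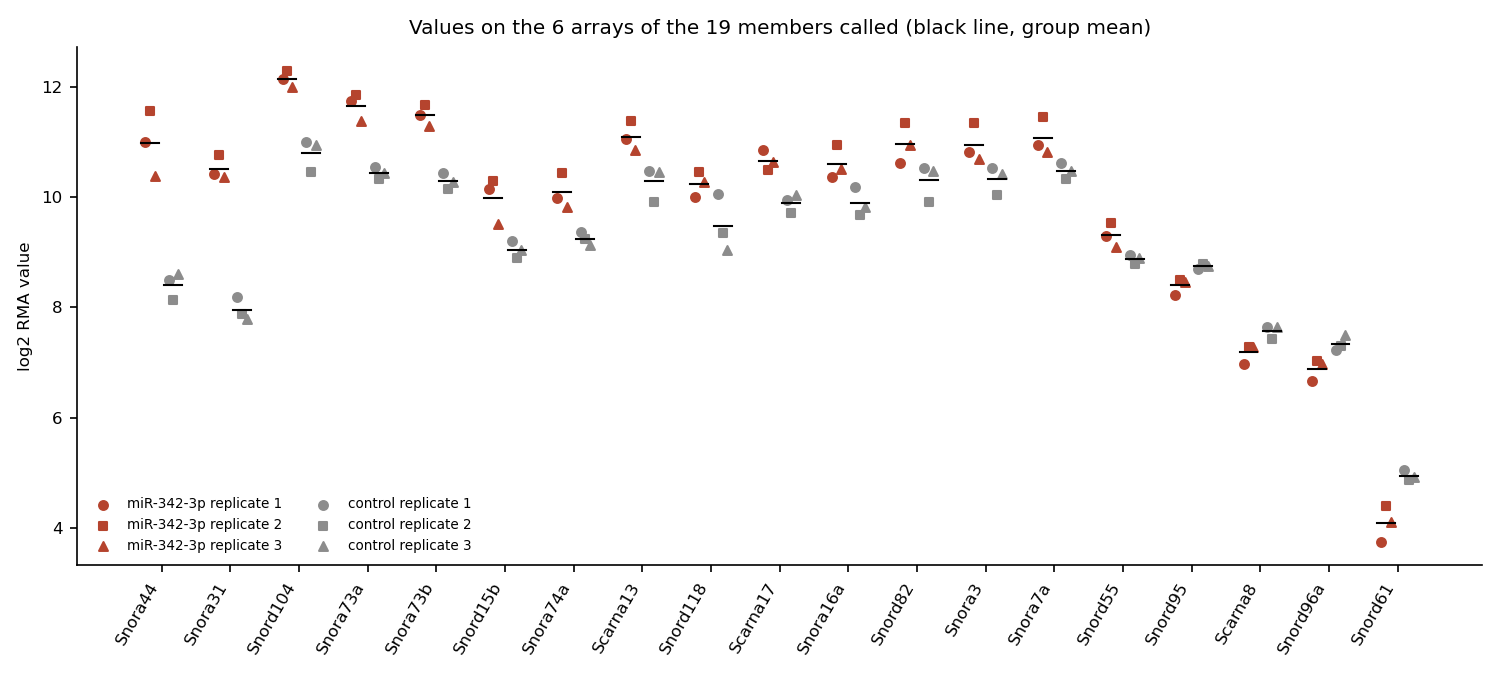
Log2 level on each array of the 19 small RNAs called at an FDR under 0.1, with miR-342-3p arrays (red) left of control arrays (grey), a symbol for each replicate number and a line at the mean of each group. The groups overlap for Snord118 alone, where control replicate 1 at 10.06 stands above miR-342-3p replicate 1 at 10.01.

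Among the C/D snoRNAs, Snord104 changed most. Its human counterpart guides methylation of 28S rRNA. It was at 12.14, 12.30 and 12.00 in the miR-342-3p arrays and at 11.01, 10.45 and 10.95 in the control arrays, which is 1.34 ± 0.150 (SE, FDR 0.00724) or 2.53-fold. Every miR-342-3p array was about 1 log2 unit or more above the highest control array. Snord15b, a copy of U15, was at 10.15, 10.30 and 9.52 in miR-342-3p-transfected cells and at 9.20, 8.90 and 9.05 in control cells (0.94 ± 0.186, FDR 0.0297). Here miR-342-3p replicate 3 lay closer to the controls than to the other 2 miR-342-3p arrays.

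Snord118, known as U8, is needed for maturation of 5.8S and 28S rRNA and is transcribed as a gene of its own. It was at 10.01, 10.45 and 10.27 in the miR-342-3p arrays and at 10.06, 9.36 and 9.04 in the control arrays (0.76 ± 0.231, FDR 0.0927). It was the only called small RNA whose groups overlapped, and its control arrays were spread over 1 log2 unit. Snord82 was at 10.63, 11.34 and 10.95 in miR-342-3p-transfected cells and at 10.54, 9.92 and 10.48 in control cells (0.66 ± 0.203, FDR 0.0956). Snord55 was at 9.29, 9.54 and 9.09 in miR-342-3p-transfected cells and at 8.95, 8.79 and 8.90 in control cells (0.43 ± 0.116, FDR 0.0687). After centring of the arrays on their medians these 3 calls were lost, with FDRs of 0.123, 0.141 and 0.124.

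The other members with a part in cleavage of the rRNA precursor, Snord14e (a U14 copy) and Snord22 (U22), did not pass the test. Snord3 and Snord13, which also act there, were not among the members measured. Snord14e was at 8.97, 9.39 and 9.22 in miR-342-3p-transfected cells and at 9.29, 9.25 and 9.37 in control cells (-0.11, SE 0.109, FDR 0.504). Snord22 was at 7.20, 7.70 and 7.48 in miR-342-3p-transfected cells and at 7.57, 7.44 and 7.73 in control cells (-0.12, SE 0.131, FDR 0.548). Thus the H/ACA pair Snora73a and Snora73b and the C/D member Snord118 were called higher, whereas Snord14e and Snord22 were not called. The groups overlapped for Snord118 as they did for Snord14e and Snord22. When 1 array was left out, the call of Snord118 was kept only without control replicate 1 (FDR 0.0579). The brightest C/D members that were not called were Snord57, with a difference of 0.14 (SE 0.112, FDR 0.437), and Snord16a, with a difference of 0.12 (SE 0.109, FDR 0.492).

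Of the C/D snoRNAs 3 fell. Snord61 was at 3.75, 4.39 and 4.11 in the miR-342-3p arrays and at 5.04, 4.86 and 4.93 in the control arrays, a change of -0.86 ± 0.146 (SE, FDR 0.0204). It is among the dimmest members, with only Snord38a below it in control cells. Snord96a was at 6.66, 7.02 and 6.97 in miR-342-3p-transfected cells and at 7.22, 7.30 and 7.50 in control cells (-0.46 ± 0.117, FDR 0.0609). Snord95 was at 8.23, 8.50 and 8.47 in miR-342-3p-transfected cells and at 8.69, 8.79 and 8.76 in control cells (-0.35 ± 0.0916, FDR 0.0649). In each of the 3, every miR-342-3p array was below every control array, and miR-342-3p replicate 1 was the lowest. The calls of Snord96a and Snord95 were lost without any 1 of the control arrays (FDR 0.151 to 0.229 and 0.196 to 0.238). That of Snord61 was lost without control replicate 1 (FDR 0.11).

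The largest mean difference downwards was not called and belonged to Snord58b, which was singled out after its values were seen. Snord58b was at 3.45, 5.41 and 5.35 in miR-342-3p-transfected cells and at 5.97, 5.49 and 5.65 in control cells (-0.96 ± 0.451, FDR 0.215). One array, miR-342-3p replicate 1, accounted for most of the difference, since without it the value was -0.319. Likewise chosen after its values were seen, Snord53 was at 10.99, 10.86 and 10.62 in miR-342-3p-transfected cells and at 10.64, 9.03 and 10.40 in control cells (0.80 ± 0.351, FDR 0.196), and without control replicate 2 its difference was 0.303. In both, a single low array set the size of the difference.

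At an FDR under 0.1 the 3 scaRNAs were all called. Scarna13 was at 11.05, 11.39 and 10.86 in miR-342-3p-transfected cells and at 10.48, 9.92 and 10.46 in control cells (0.81 ± 0.176, FDR 0.0382). Scarna17 was at 10.85, 10.49 and 10.64 in miR-342-3p-transfected cells and at 9.95, 9.72 and 10.04 in control cells (0.75 ± 0.117, FDR 0.0168). Scarna8 was at 6.98, 7.28 and 7.29 in miR-342-3p-transfected cells and at 7.65, 7.42 and 7.64 in control cells (-0.39 ± 0.109, FDR 0.0760). The call of Scarna13 was lost without any 1 of the control arrays (FDR 0.105 to 0.133), and that of Scarna8 without any 1 of the control arrays, without miR-342-3p replicate 1 and after centring of the arrays on their medians (FDR 0.104). Scarna17 kept its call whichever array was left out.

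Next, the members were divided into 3 groups of 18 by their mean level in control cells. In the upper level group, at 9.45 to 12.52, 10 were higher and 0 lower, all 18 means lay above 0 and the median change was 0.637. Among the 3442 genes of all kinds within those levels, 5.81% were called higher and 17.8% lower. In the middle level group, at 7.85 to 9.32, 5 were higher and 1 lower, with a median of 0.385, where 6.42% of all genes at those levels were called higher and 14.7% lower. In the lower level group, at 4.51 to 7.82, 0 were higher and 3 lower, with a median of -0.0162, where 2.94% of all genes were called higher and 1.91% lower. There 6 members had an unadjusted limma p under 0.05. The count of higher calls was thus 10, 5 and 0 from the upper to the lower level group, and the 3 members of the lower level group that were called all fell. The difference between the level groups was not tested.

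Within the 2 large classes there were 5 of 7, 3 of 7 and 0 of 6 H/ACA members and 3 of 9, 2 of 11 and 0 of 11 C/D members called higher in the upper, middle and lower level groups. Control values enter both the level and the change. When the level groups were set instead by the mean of all 6 arrays, 11, 4 and 0 members were higher and 0, 1 and 3 were lower in the upper, middle and lower level groups. Over the 54 members, level in control cells and change had a Pearson r of 0.403 and a Spearman rho of 0.541, given as a description, since the points share the same arrays. Within the 20 H/ACA members these were 0.0604 and 0.347, and within the 31 C/D members 0.601 and 0.620. The level of a probe set also depends on its probes, so it orders these RNAs only roughly by abundance. The count of 10 in the upper level group was 6, 4 and 4 without control replicate 1, 2 or 3. It was 6 after centring of the arrays on their medians. Of all genes, 0.502%, 0.441%, 0.471% and 2.05% were called higher in these fits, in that order.

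**Figure D3:**
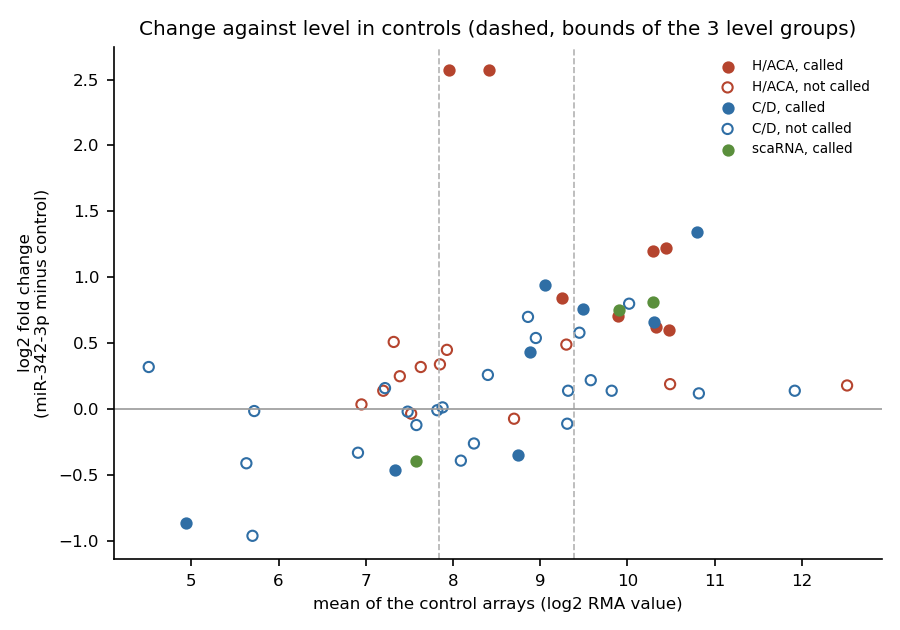
Log2 change (y axis) of the 54 small RNAs against their mean log2 level in the control arrays (x axis), coloured by class and filled where called, with the bounds of the 3 level groups as dashed lines. All 18 members of the upper level group lie above 0, and the 4 members called lower lie at control levels below 9.

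The members were also more spread between arrays of one group than genes at large, and they moved together. The median SD over the 3 arrays was 0.262 for the members in miR-342-3p-transfected cells and 0.203 in control cells, against 0.144 and 0.056 for all genes. Within the miR-342-3p group, replicate 2 was the highest array for 45 of the 54 members (83.3%) but for 31.9% of all genes, and replicate 1 was the lowest for 32 members (59.3%) but for 29.5% of all genes. Within the control group, replicate 2 was the lowest array for 42 members (77.8%) but for 29.2% of all genes, and replicate 1 was the highest for 39 (72.2%) but for 34.9% of all genes. The same arrays were thus high or low for most of the small RNAs at once, and the 54 rows are not independent measurements.

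The array that was highest among the miR-342-3p samples and the array that was lowest among the controls carry the same replicate number, 2. The labels do not say that equal numbers mark a shared culture or day. By array, the median change of the 54 members from the control mean was 0.0428, 0.541 and 0.226 in miR-342-3p replicates 1, 2 and 3, against 0.113, 0.0363 and 0.0251 for all genes. In replicate 1 the median of the members was thus below that of all genes. For the H/ACA class these medians were 0.226, 0.957 and 0.307, all above 0, and for the scaRNAs they were 0.760, 0.584 and 0.572. For the C/D class they were -0.0241, 0.357 and 0.123, so that the shift of this class was absent from replicate 1.

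**Figure D4:**
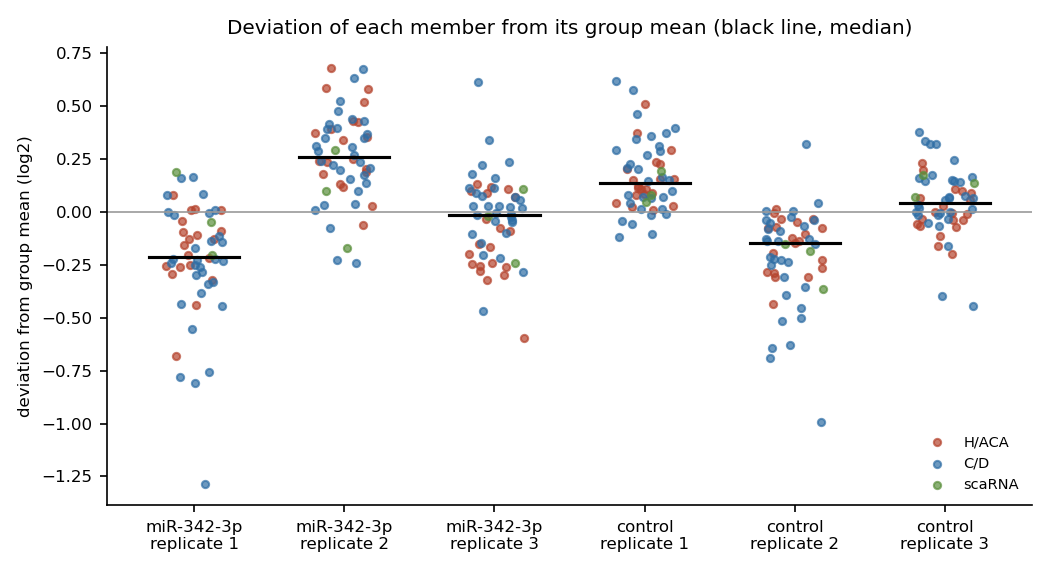
Deviation of each of the 54 small RNAs from the mean of its own group (y axis, log2) on each of the 6 arrays (x axis), with a bar at the median. The medians are -0.213, 0.260 and -0.0183 in miR-342-3p replicates 1 to 3 and 0.134, -0.149 and 0.0428 in control replicates 1 to 3.

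Most of these RNAs are made within another transcript, so each was set beside its host gene, taken as the annotated gene whose span holds it. A host was found for 53 of the 54 members, and the exception was Snord118. The 53 members lay in 43 hosts, and 24 of the hosts, holding 28 members, were measured on the array. By limma, of the 24 hosts 0 were called higher and 2 were called lower (1 and 4 had an unadjusted p under 0.05 in these directions). The 2 lower hosts are 8.33% of the 24, where 7.42% of all genes were called lower. All hosts but Rplp2 (7.41) had control means of 8.03 to 12.76. Of all genes at control levels of 7.85 to 9.32 and of 9.45 to 12.52, 14.7% and 17.8% were called lower. The changes of the 24 hosts ranged from -1.09 to 0.31 with a median of -0.12. The member stood above its host in 24 of the 28 pairs.

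A host was measured for only 4 of the 15 members called higher, and none of these hosts rose with its member. For the rest, among them Snora44, Snora73a, Snora73b and Snord104, no host was measured. Snora31 lies in Tpt1, which encodes a translationally controlled tumour protein, and Tpt1 was at 12.62, 12.68 and 12.72 in miR-342-3p-transfected cells and at 12.61, 12.67 and 12.64 in control cells. The host differed by 0.0359 (FDR 0.751) while Snora31 rose by 2.57. The 3 other probe sets of Tpt1 differed by at most 0.02. The same held for Snord15b at 0.94 in Rps3 at -0.15 (FDR 0.235), Snora3 at 0.62 in Rpl27a at -0.16 (FDR 0.298) and Snord82 at 0.66 in Ncl at -0.41 (FDR 0.203).

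For the members called lower, both measured hosts fell too. Rbmx, which encodes a nuclear RNA-binding protein and holds Snord61, was at 7.62, 8.05 and 8.12 in miR-342-3p-transfected cells and at 8.97, 9.06 and 9.02 in control cells (-1.09 ± 0.128, FDR 0.00847). Haus6, which encodes a subunit of the augmin complex of the spindle and holds Scarna8, was at 7.96, 7.64 and 8.51 in miR-342-3p-transfected cells and at 9.13, 8.99 and 9.0 in control cells (-1.01 ± 0.185, FDR 0.0255). In these 2 pairs host and small RNA both fell, by 1.09 and 0.86 in the first and by 1.01 and 0.39 in the second on the log2 scale. Over the 28 pairs Pearson's r was 0.343 and Spearman's rho -0.00876, as a description of pairs of which some share a host.

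**Figure D5:**
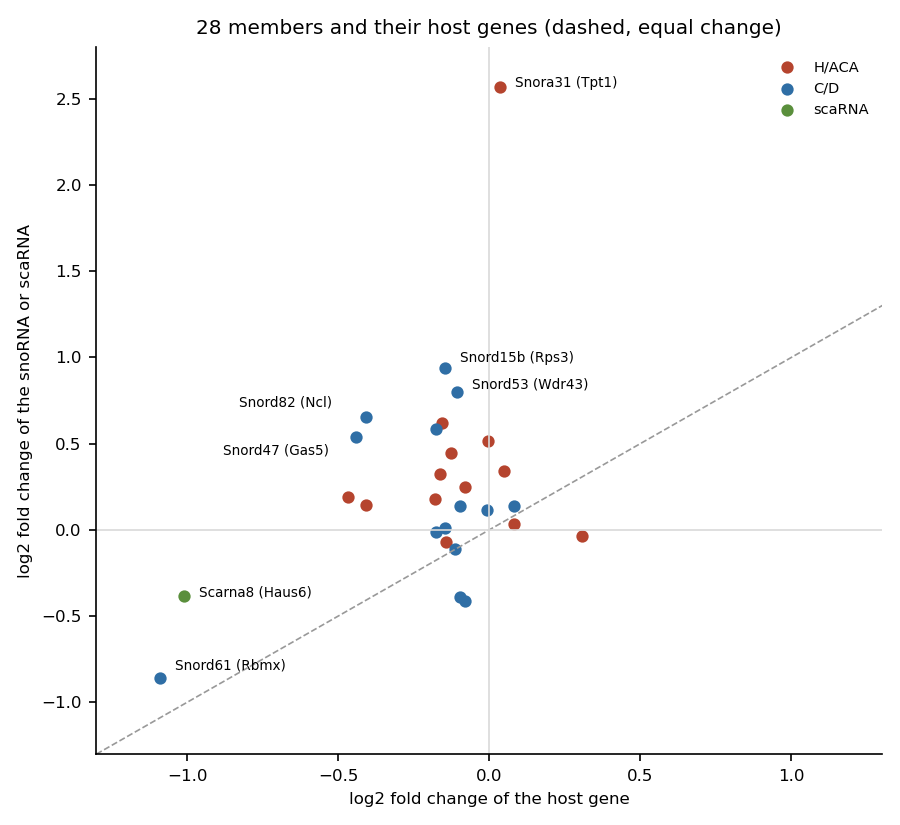
Log2 change of the small RNA (y axis) against that of its host gene (x axis) for the 28 members whose host was measured, coloured by class, with a dashed line at equal change. Snora31 lies at 2.57 above a host at 0.0359, 24 of the 28 points lie above the line, and the 2 points at the left are Snord61 in Rbmx and Scarna8 in Haus6.

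A pair of members was held by each of 10 hosts, and the 2 could differ. Both members were called in 3 of the 10 hosts, 1 was called in 3 and neither in 4. In Snhg12, Snora44 and Snora16a were both higher but by 2.57 and 0.71, and in Snhg3, Snora73a and Snora73b were higher by 1.22 and 1.20. In Rack1, which encodes a scaffold protein of the small ribosomal subunit, Snord95 and Snord96a both fell. In Rps3, Snord15b rose by 0.94 while Snord15a, with arrays at 7.59, 8.24 and 7.84 in miR-342-3p-transfected cells and 7.96, 8.20 and 7.48 in control cells, differed by 0.0138. In Ncl, which encodes nucleolin, Snord82 rose by 0.66 and Snora75 differed by 0.14 (FDR 0.479). The differences between the members of a host were not tested.

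By kind of host, 15 members lay in noncoding hosts, 21 in ribosomal protein genes and 17 in other protein genes. Of those in noncoding hosts 8 were called higher (53.3%) and 0 lower, with a median change of 0.715. All 5 H/ACA members among them (Snora44, Snora16a, Snora73a, Snora73b and Snora74a) were higher, against 1 of 8 C/D members. Of those in ribosomal protein genes 4 were higher and 0 lower (median 0.322), and of those in other protein genes 2 were higher and 4 lower (median 0.0362). These groups were formed after the values of the members were seen, and members of one host count separately in them.

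Hosts of snoRNAs often begin with a run of pyrimidines at the transcription start, the 5′ TOP element of ribosomal protein genes and of several Snhg genes. The windows below are shown for the 3 hosts in which both members were called and for the host of Snora31. Each runs 30 bases before to 20 bases from the annotated start, in RefSeq annotation of GRCm38.p6, on the strand of the gene. Capitals mark the longest run of C and T that opens with C and is at least 5 bases long. Only the 10 bases on each side of the start were searched. The positions are chr4:132308648-132308697, plus strand, for Snhg12, chr4:132353667-132353716, minus strand, for Snhg3, chr11:48800330-48800379, plus strand, for Rack1 and chr14:75845226-75845275, plus strand, for Tpt1.
Snhg12: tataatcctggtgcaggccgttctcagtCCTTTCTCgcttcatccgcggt
Snhg3: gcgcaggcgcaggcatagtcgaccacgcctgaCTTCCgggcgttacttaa
Rack1: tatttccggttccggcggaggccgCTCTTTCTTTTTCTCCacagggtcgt
Tpt1: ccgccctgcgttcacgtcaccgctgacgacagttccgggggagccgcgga

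The run was 8 bases long in Snhg12, 5 in Snhg3 and 16 in Rack1, and no such run was present in the window of Tpt1. These results hold only for the annotated start that was used. Of 32 hosts with a start window 15 held a run (46.9%), against 7773 of 27025 genes (28.8%). Snhg12 and Snhg3, whose snoRNAs were called higher, and Rack1, whose snoRNAs were called lower, each held one. Whether the run goes with a direction of change was not tested. A match of letters is a description and not evidence that the element acts.

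Finally, 33 genes for proteins that build, carry or trim these RNAs were examined, all of which were measured. By limma, 0 of these were called higher and 9 were called lower, where 4.14% and 7.42% of all genes were, and 2 and 14 had an unadjusted p under 0.05. Their median change was -0.192, and their control means ran from 7.52 (Exosc3) to 12.61 (Snu13). Of all genes at control levels of 7.85 to 9.32, 6.42% were called higher and 14.7% lower. At 9.45 to 12.52 these shares were 5.81% and 17.8%. Dkc1, the pseudouridine synthase of H/ACA particles, was at 10.15, 9.91 and 10.30 in miR-342-3p-transfected cells and at 10.81, 10.83 and 10.72 in control cells (-0.66, FDR 0.0173). The genes of the other H/ACA core proteins, Nop10, Nhp2 and Gar1, were not called. Shq1, a chaperone of dyskerin, fell by 0.50 on the log2 scale (FDR 0.0355). Thus the RNA for the core enzyme of the H/ACA class and for its chaperone fell where 8 H/ACA snoRNAs rose. Protein was not measured. The call of Shq1 was lost without any 1 of the control arrays (FDR 0.129 to 0.165). That of Dkc1 was kept, but close to the threshold of 0.1 (FDR 0.0999, 0.0998 and 0.0793 without control replicate 1, 2 or 3).

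Of the genes of the 4 C/D core proteins only Nop58 was called, and it fell by 0.56 (FDR 0.0898). That call was lost after repeated quantile normalization (FDR 0.115). It was also lost without any 1 of the control arrays (FDR 0.215 to 0.256) and without miR-342-3p replicate 1 (FDR 0.158). The methyltransferase Fbl was at 10.87, 11.08 and 10.82 in miR-342-3p-transfected cells and at 10.75, 10.78 and 10.77 in control cells, a difference of 0.16 (FDR 0.281). Of the 7 C/D assembly factors, Ruvbl1, an ATPase of the R2TP complex, fell by 0.47 (FDR 0.0163) and Znhit3 fell by 0.59 (FDR 0.0202). Both calls were kept without control replicate 1 and lost without control replicate 2 or 3 (FDR 0.105 to 0.11). None of the 6 Cajal body and cap factors was called, at differences of -0.36 to 0.0607.

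Of the 10 genes for trimming and decay 4 fell. These were Mtrex, the helicase that feeds RNA to the nuclear exosome (-0.61, FDR 0.0384), Dis3, a nuclease of the exosome (-0.56, FDR 0.0422), Exosc3, a subunit of its cap (-0.46, FDR 0.0379), and Parn, a poly(A)-specific exonuclease that trims H/ACA RNA ends (-0.41, FDR 0.0741). The calls of all 4 were lost without any 1 of the control arrays (FDR 0.124 to 0.27). The call of Parn was also lost after centring of the arrays on their medians (FDR 0.103). The call of Exosc3 rests on the probe set chosen, since its second probe set differed by 0.328, and the mean of the 2 by -0.0661 (FDR 0.569). Mtrex was at 8.31, 8.21 and 8.76 in miR-342-3p-transfected cells and at 9.06, 9.06 and 9.01 in control cells, without overlap. Exosc10, the nuclear exosome nuclease that trims snoRNA ends, was at 11.20, 11.19 and 11.08 in miR-342-3p-transfected cells and at 10.97, 10.97 and 10.95 in control cells, and its difference of 0.19 was not called (FDR 0.147). The count of 9 was 3, 1 and 1 without control replicate 1, 2 or 3, and 14 without miR-342-3p replicate 3. Of all genes, 0.512%, 0.577%, 0.702% and 12.1% were called lower in these fits, in that order.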

How the data were processed

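Total RNA of 6 RAW264.7 samples, 3 per group, was hybridized to 1 Affymetrix gene array each. The authors processed the scans with RMA, which corrects background, quantile-normalizes the arrays and summarizes the probes, and the log2 values they deposited are unfiltered. No version of RMA was stated. After quantile normalization a change is relative to the other genes. Groups and replicate numbers came from the labels, which name no separate cultures, although the study describes independent experiments, so the p-values measure the spread between these samples, which may be technical.

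Of 35556 probe sets, 21789 had 1 gene in the platform annotation, 1621 several and 12146 none listed. A gene was represented by its probe set of largest interquartile range, and 6 of the 54 members had 2 probe sets. A linear model was fitted to all 19938 genes with limma 3.58.1 (lmFit, eBayes) in R 4.3.3, and the Benjamini and Hochberg FDR was taken over all genes, with a threshold of 0.1. The script was tested on simulated data. Hosts were found by position in the RefSeq gene table of GRCm38.p6, to which all 54 members matched by ID. The table holds no strand, so the same strand was not required as planned, and the shortest span was taken. No snoRNA sequence was used here. The values of 1 pair of members by host are not reported here.

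The members and lists were chosen with earlier results of these data known. Named genes were, per class, the called members with the largest change (up to 8 higher and 4 lower), the 3 brightest H/ACA, 3 brightest C/D and 2 brightest scaRNA members, those known to act in cleavage of the rRNA precursor, and each called factor. Hosts and their members are named beside these, and Snora21, Snora62, Snord53, Snord58b, Snord38a, Fbl and Exosc10 were named after their values were seen. Fits were repeated with a replicate block, without each array, with other probe sets, scalings and thresholds, without low genes, with another prior, with array weights and by the methods' t-test. Figures were drawn with matplotlib 3.10.9 in Python 3.11.15.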

Additional observations from a re-analysis of the deposited data

How the results depend on the processing

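Of the alternative values of the named genes, 427 kept their direction and side of the threshold, 144 kept their direction but lost the call and 4 gained it. One reversed, which was Snord22, with values of -0.24 to 0.00625 when 1 array was left out and 0.00625 without miR-342-3p replicate 1. The small RNAs called higher numbered 6 to 15 and those lower 0 to 5 when 1 array was left out. Of all genes, 0.441% to 10.6% and 0.512% to 12.1% were then called higher and lower. At an FDR under 0.05 the small RNAs called higher and lower were 9 and 1 (all genes, 1.56% and 3.32%). At an FDR of 0.01 or less they were 5 and 0 (all genes, 0.166% and 0.0953%). By the methods' t-test, which does not share the spread between genes, they were 1 (Snora31) and 0 (all genes, 0.13% and 0.11%). With the FDR taken over all probe sets, a setting added after seeing the data that tests more features, 7 were higher and 1 lower. With low genes left out 2 were lower, since that filter removes dim members. The median of the scaRNAs was 0.631 to 0.822 with 1 array left out. The calls in the upper level group ranged over 4 to 8 with 1 array left out, and were 6 after array median centring, 5 at an FDR under 0.05, 3 at an FDR of 0.01 or less and 0 by the methods' t-test. These rows and those for hosts and factors were added after seeing the data. Hosts called higher were 0 to 1 with 1 array left out and 1 after repeated quantile normalization, with low genes left out and with a trend and robust prior. Hosts called lower were 1 to 4 with 1 array left out, 5 with a trend and robust prior, 1 at an FDR of 0.01 or less and 0 by the methods' t-test. Factors called higher were 0 to 1 with 1 array left out, 2 after repeated quantile normalization and with low genes left out, and 1 with a trend and robust prior. Factors called lower were 1 to 14 with 1 array left out, 0 at an FDR of 0.01 or less and 1 by the methods' t-test. The causes were not tested.

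With the replicate number as a block, 17 small RNAs were higher and 4 lower, including all 15 and 4 of the fit without it. The deviations of same-numbered arrays over all genes correlated at -0.3082, -0.1626 and -0.1062. Arrays of different numbers were not compared in this way, so these values cannot tell whether the numbers pair the samples. The median change of all genes was 0.03994 after array median centring and 0.0893 after repeated quantile normalization, and the medians of the H/ACA class were then 0.438 and 0.512 and those of the C/D class 0.107 and 0.157. Over the leave-one-out fits the H/ACA median was 0.248 to 0.583 and the C/D median 0.0252 to 0.211.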

Other observations

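A further 41 probe sets carried a snoRNA together with another gene and named none of them in the comparison. Of these, 24 were assigned to the Snord116 copies, C/D snoRNAs known mainly from brain. They held values of 5.19 to 5.72 on miR-342-3p replicates 1 and 2 and of 6.60 to 6.74 on miR-342-3p replicate 3. The control arrays were split as well, at 5.68 to 5.89 on control replicate 1 and 6.15 to 6.73 on control replicates 2 and 3. Their control means were 6.19 to 6.34. Their differences of -0.43 to -0.31 were not called, and most of the 24 hold the same values, so they count as few measurements.

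The other 17 had differences of -0.66 to 0.72, and none was called at an FDR under 0.1 over all probe sets. That scale is stricter than the one over genes used for the 54 members, of which 7 were higher and 1 was lower on it. The probe set of Snora34 and Mir1291 was at 10.70, 11.18 and 10.87 in miR-342-3p-transfected cells and at 10.56, 9.60 and 10.44 in control cells (FDR 0.217). The probe set of Snord32a and Rpl13a was at 10.83, 11.13 and 10.65 in miR-342-3p-transfected cells and at 10.51, 9.66 and 10.46 in control cells (FDR 0.222). In both the groups did not overlap and control replicate 2 was the lowest array, as for most of the 54 members. The 2 probe sets of Snora19 with Mir3084 hold the same values, at 3.85, 4.45 and 4.23 in miR-342-3p-transfected cells and at 4.69, 4.85 and 4.95 in control cells (FDR 0.124), and were lower without overlap. The probe sets of other U14 copies, Snord14a with Rps13 (-0.347) and Snord14c and Snord14d with Hspa8 (-0.123 and -0.0926), were not called either. These probe sets were named after their values were seen.

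For 3 of the 6 members with 2 probe sets, Scarna17, Snora30 and Snord118, the second held the same values as the first. For Snora3, Snora21 and Snord58b the second probe set gave 0.611, -0.129 and -0.909, close to the values used.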
